A study of Oryza sativa with 12 samples.

Results

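Root transcripts of the hybrid rice Xieyou9308 were compared at the tillering stage with the mean of its parents, R9308 and Xieqingzao B. The measure was the depth of reads at SNP sites where the hybrid and both parents had the same single base, so that depth did not depend on which allele was counted. There were 47536 such sites among the 249857 in the table of calls, and 46961 of them differed from the Nipponbare reference base. Depth was divided by the sum of its column over these sites, added up over the sites of each transcript and given as reads per 1000000 reads of the column (RPM). A transcript was kept when at least one of the columns had 20 or more reads. This left 10781 of the 28182 transcripts in the table, from 9674 loci, with 44897 sites. A further 2034 transcripts had shared sites but too few reads, and 15367 had no shared site. Because a site had to be called in all 3 genotypes, transcripts silent in one of them could not enter.

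Xieyou9308 is the first-generation hybrid of the maternal line Xieqingzao B and the paternal line R9308. Seedlings of all 3 genotypes came from the field and were grown on hydroponically. Roots were taken at tillering, when side shoots form, and at heading, when the panicle emerges. The authors sequenced poly(A) RNA from 2 roots of each genotype and stage and pooled the reads of the 2 roots before the calls were made.

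In a hybrid each parental genome is present in a single copy per cell. A transcript under purely additive control is found at the mid-parent level, the mean of the parents. A level like that of a single parent is described as dominance, and a level outside the parental range as over- or underdominance or as transgressive expression. Departures of this kind have long been studied in connection with heterosis, the superior growth of hybrids.

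Each genotype had 1 pooled column, so there was no spread between replicates and no p-value for any difference. A transcript was called above both parents when the hybrid was at least 2-fold above the higher parent, and below both when it was at least 2-fold below the lower parent. It was called near a parent when the parents were at least 2-fold apart and the hybrid lay between them, closer to that parent on the log2 scale. On this scale a hybrid exactly at the mid-parent falls nearer to the higher parent, so a call near the higher parent includes additive levels. Poisson 95% intervals are exact and were computed at the best covered site of a transcript, because neighbouring sites share reads. They cover counting error only, since PCR copies of a molecule are counted as separate reads. In whole roots, a lower depth from fewer cells of a type and from less RNA per cell cannot be told apart. The root label could not be checked against marker genes, since the identifiers in the table had no annotation to match.

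The hybrid library at tillering stood apart from those of its parents. Over the shared sites the depth was 3403408 reads in Xieyou9308, 4645169 in R9308 and 3728287 in Xieqingzao B, with a median of 22, 34 and 26 reads per site. Across the 9228 transcripts kept at both stages, Spearman's rho at tillering was 0.84 between the hybrid and R9308, 0.91 between the hybrid and Xieqingzao B, and 0.93 between the parents. At heading the hybrid and R9308 were the closest pair, with 0.94, against 0.89 for each of the other pairs. These correlations are across transcripts, which are not independent replicates, and pairs of columns share their sites. At tillering 11.2% of these transcripts were 2-fold apart between the parents, 22% between the hybrid and Xieqingzao B and 32.2% between the hybrid and R9308.

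The depth of the hybrid also changed with position along the transcript. At sites in the first 250 bases the median log2 ratio of hybrid to mid-parent was -0.55. It was -0.38 in the next bin, up to position 500, -0.15 from there to 1000, -0.02 from there to 1500 and 0.17 beyond 3000 bases. Between the parents at tillering the median log2 ratio stayed between -0.04 and 0.09, and the hybrid ratio at heading between -0.19 and -0.03. Between the parents at heading it rose from -0.24 in the first bin to -0.04 in the last. The gradient was also found within transcripts. In 2561 transcripts with sites on both sides, the ratio at sites beyond position 1000 exceeded that at sites up to position 500 by a median of 0.85 on the log2 scale, and it was higher in 2166 of them (84.6%). The same difference between the parents had a median of -0.12, and the hybrid at heading had -0.08. Between the parents at heading the median was 0.17, and the ratio was higher beyond position 1000 in 62.1% of 3326 transcripts. Whether positions count from the 5′ end is not given in the sources used here. What causes the gradient was not tested, and with 1 pooled column the library and the genotype cannot be told apart. Classes are therefore also given after the depth in each column was scaled within 7 bins of position, an adjustment chosen after the gradient had been seen. It reduced the median difference within transcripts to 0.36 and did not remove it.

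**Figure D1:**
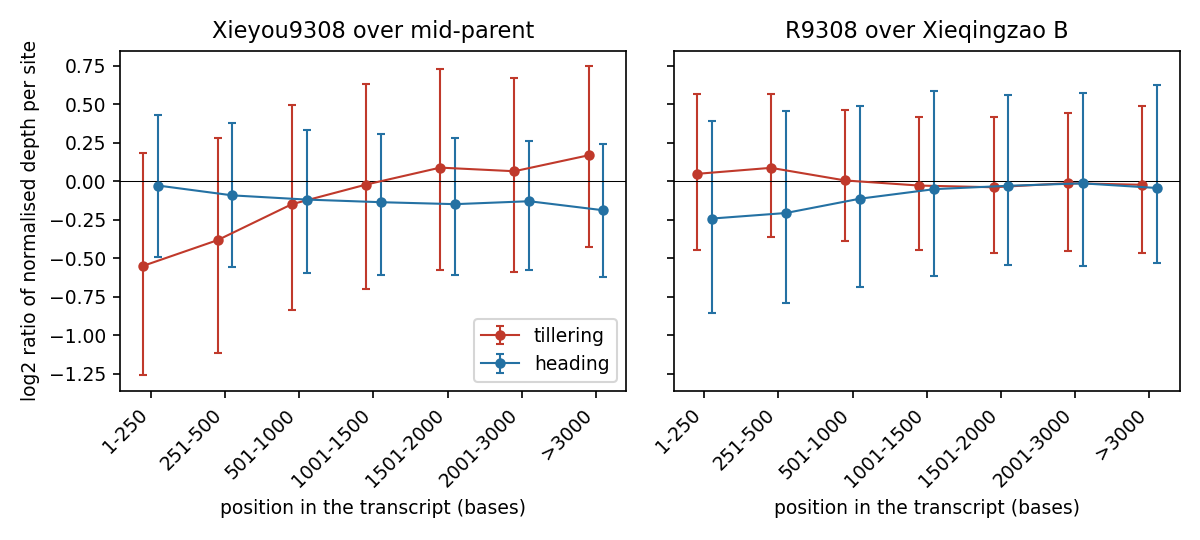
Median log2 ratio of normalised depth per site in 7 bins of position, with bars from the lower to the upper quartile over sites, for the hybrid over the mid-parent (left) and R9308 over Xieqingzao B (right) at both stages. The hybrid ratio at tillering climbs from -0.55 in the first bin to 0.17 in the last. The other series stay between -0.24 and 0.09, and the ratio between the parents at heading rises from -0.24 to -0.04.

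Transcripts of Xieyou9308 scattered widely around the mid-parent at tillering. The median log2 ratio of hybrid to mid-parent over the 10781 transcripts, which the scaling to column sums holds near 0, was 0.03, with quartiles of -0.60 and 0.59 and a standard deviation over transcripts of 1.01. At heading, under the same rule, the standard deviation was 0.72 over 12243 transcripts. The scatter changed little with depth. The standard deviation was 1.03 in transcripts with fewer than 50 reads in their highest column, lowest at 0.91 from 500 reads to under 1000, and highest at 1.12 in the 1160 transcripts with 1000 reads or more.

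At tillering 888 transcripts were 2-fold above both parents (8.24% of those tested) and 987 were 2-fold below both (9.15%). A further 337 were near R9308 (3.13%) and 442 near Xieqingzao B (4.1%), while 8127 had no call. Of the transcripts outside the parents by this margin, 47.4% were above, and with the adjustment for position the share above was 57.8%. The adjusted counts were 1110 above both (10.3%), 812 below both (7.53%), 321 near R9308 (2.98%) and 451 near Xieqingzao B (4.18%). The same transcripts kept their class in 830 of the 888 above, 779 of the 987 below, 264 of the 337 near R9308 and 362 of the 442 near Xieqingzao B.

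**Figure D2:**
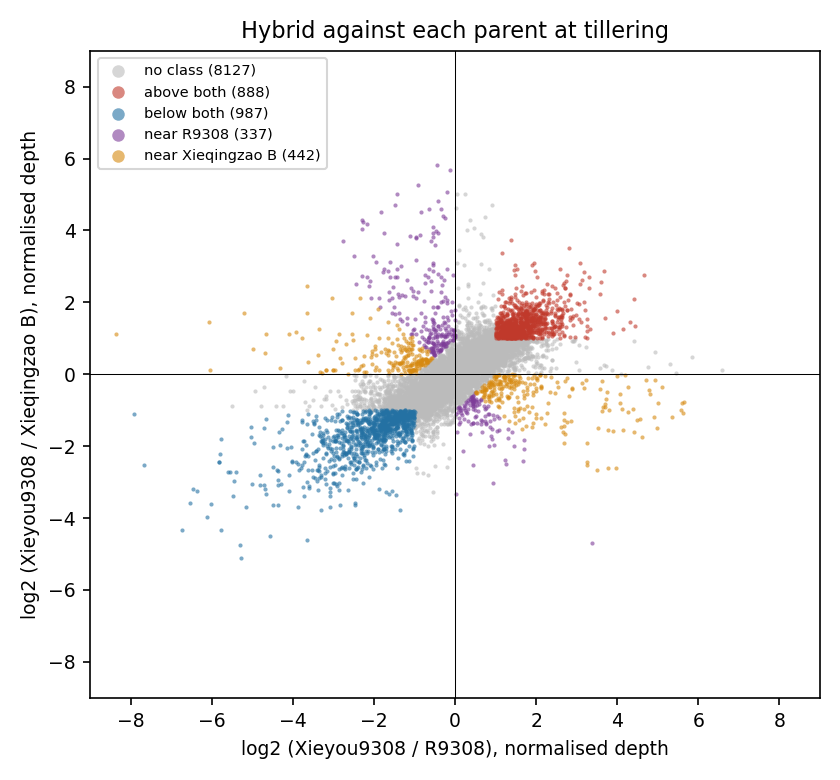
Log2 of the normalised depth of Xieyou9308 over R9308 (horizontal) and over Xieqingzao B (vertical) for the 10781 transcripts kept at tillering, 1 point each. The 888 transcripts above both parents lie at the upper right, the 987 below both at the lower left, and those near a parent in the other quadrants.

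Without a margin, the hybrid was the highest of the 3 columns in 4617 transcripts (42.8%) and the lowest in 4039 (37.5%), and it lay between the parents in the rest. By the order alone, 947 were nearer to R9308 and 1178 nearer to Xieqingzao B. At heading the hybrid was the highest in 27.1% and the lowest in 36.2%, and only 352 of 12243 transcripts (2.88%) were 2-fold above both parents and 349 (2.85%) 2-fold below both. Relative to the mid-parent itself, 1314 transcripts were at least 2-fold higher at tillering (12.2%) and 1632 at least 2-fold lower (15.1%).

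The limits of the classes cut through a continuous range. The transcript just inside the upper limit, Os02t0739700-01, had a log2 ratio of 1.00029 to its higher parent, and the one just outside, Os08t0436000-01, had 0.999766. Between 2-fold and 2.2-fold above the higher parent there were 245 transcripts, and 353 more lay between 1.8-fold and 2-fold. Below the lower parent, Os08t0457100-01 was just inside at -1.00038 and Os08t0203700-01 just outside at -0.999712, with 183 and 293 transcripts in the corresponding ranges.

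The parents were 2-fold apart in 1522 transcripts (14.1%), with R9308 higher in 901 and Xieqingzao B higher in 621. Among these 1522 the hybrid was near R9308 in 337 and near Xieqingzao B in 442, 2-fold above both in 85 and 2-fold below both in 195, and outside the parents by less than 2-fold in 463. Where R9308 was the higher parent and the hybrid lay between, it was near R9308 in 232 transcripts and near Xieqingzao B in 202. Where Xieqingzao B was higher, it was near R9308 in 105 and near Xieqingzao B in 240. Of the 472 transcripts near their higher parent, 360 (76.3%) lay within 0.5 of the mid-parent on the log2 scale, and of the 307 near their lower parent, 115 (37.5%). At heading the groups in the same order held 514 and 191, and 611 and 541 transcripts, and the classes made up 9.19% (near R9308) and 5.98% (near Xieqingzao B) of all transcripts tested.

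The depths of the classes follow in part from how they were chosen, since a transcript could be kept through a high count in the hybrid alone. In transcripts above both parents the median depth was 34.8 RPM in the hybrid and 11.9 RPM at the mid-parent. In those below both it was 7.64 RPM in the hybrid and 30.7 RPM at the mid-parent, and over all kept transcripts the mid-parent median was 28.3 RPM. Depth sums over sites and is not divided by length. In transcripts with at least 100 reads in a column, 497 of 6692 were above both (7.43%) and 620 below both (9.26%). The classes above both and below both also differed in how far they lay from the parents. Transcripts above both had log2 ratios to the mid-parent with quartiles of 1.29 and 1.73 and a maximum of 3.41, while those below both had quartiles of -2.36 and -1.44 and a minimum of -6.95. Departures of 3-fold or more from the nearer parent were found in 173 transcripts upwards and in 405 downwards.

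Counting intervals set the hybrid apart from both parents more often in the class above both than in the class below both. At the best covered site, the Poisson interval of the hybrid lay wholly above those of both parents in 739 of the 888 (83.2%), and wholly below both in 647 of the 987 (65.6%). Over all kept transcripts 19.2% had an interval above both and 11.3% below both. The best covered site is part of the depth that made the classes, so these shares are a description only. Hybrid reads had a median of 118.5 in the class above both and 26 in the class below both, which was chosen for low hybrid depth. The classes were made from the sum over the sites of a transcript, and neighbouring sites share reads, so the agreement among sites is given as a description. With 2 or more sites, every site placed the hybrid above both parents in 434 of 516 transcripts, and below both in 529 of 638. Every site placed the parents in the same order in 176 of 219 transcripts near R9308 and in 279 of 325 near Xieqingzao B. Over all kept transcripts with 2 or more sites, every site lay on the transcript's side of the mid-parent in 4058 of 7673 (52.9%). The hybrid had at most 3 reads in 68 of the 987 below both.

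Named transcripts were those with the largest differences in each class, 2 per class, among transcripts with 2 or more sites, 50 or more reads at the best site and the same direction at every site. The files give them no description, and no function is stated here.

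Os02t0581200-01 had 155 reads in the hybrid, 33 in R9308 and 29 in Xieqingzao B over 2 sites, or 45.5, 7.10 and 7.78 RPM. The parents were close and the hybrid far above both. The log2 ratio to the mid-parent was 2.61, and at the best site the hybrid interval of 23.1 to 34.8 RPM did not touch those of R9308 (2.80 to 6.91) or Xieqingzao B (3.07 to 7.96). At heading the reads were 35, 21 and 23, and the ratio was 0.82. Os02t0618400-02 had 130 reads in the hybrid, 21 in R9308 and 25 in Xieqingzao B, with a log2 ratio of 2.77. Its order changed with stage, since at heading it had 203, 414 and 120 reads and lay near R9308.

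Os12t0628600-01 had 41 reads in the hybrid, 1324 in R9308 and 1010 in Xieqingzao B, or 12.0, 285 and 271 RPM. The parents were nearly equal and the hybrid was far below both, with a log2 ratio of -4.53. At 2 other sites of the transcript, where not all columns shared a single base, the reads were 7, 230 and 60, again lowest in the hybrid. At heading the reads were 68, 59 and 435, so that the hybrid lay near R9308. Os01t0920700-00 had 2 reads in the hybrid, 106 in R9308 and 75 in Xieqingzao B. At its best site the hybrid had 1 read and the parents together had 92. With the reads and the column sums of the parents pooled, the log2 ratio of the hybrid to this pooled level was -5.22 (exact 95% interval -10.54 to -2.71).

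Os10t0361000-01 was near R9308, the parent with the low level. It had 130 reads in the hybrid, 17 in R9308 and 3696 in Xieqingzao B, and the log2 ratio of R9308 to Xieqingzao B was -8.08. At heading the reads were 26, 18 and 862 and the transcript was again near R9308. Os11t0694100-01, with 14 sites, was near R9308 as the parent with the high level, with 1964 reads in the hybrid, 13225 in R9308 and 110 in Xieqingzao B. Both the hybrid and R9308 were far above Xieqingzao B, and at heading the reads were 474, 761 and 5. Near Xieqingzao B, Os07t0432333-01 had 5186 reads in the hybrid, 144 in R9308 and 11963 in Xieqingzao B. Os08t0244500-00 had 46, 4 and 306 reads and at heading 118, 15 and 764, with the same order at both stages.

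The classes were then set against sites that had not been used to make them, where the columns carried different bases or 2 bases. Of the 888 transcripts above both parents, 368 had enough reads at such sites. Their median log2 ratio of hybrid to mid-parent was 1.09, and 344 of them (93.5%) were above the mid-parent, but only 148 (40.2%) were again 2-fold above both. Among 500 transcripts of the class below both, the median was -1.37, 93.2% were below the mid-parent and 260 (52%) were again 2-fold below both. Over all 5558 kept transcripts measured at such sites, 5.49% were above both and 9.54% below both. Near R9308, 102 of 238 had the same class (42.9%, against 4.71% overall), and near Xieqingzao B, 143 of 303 (47.2%, against 6.21%). These sites come from the same pooled libraries, so they carry the same gradient with position. They can also share reads with neighbouring sites that made the classes, so the agreement is in part built in and is not an independent check.

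At heading little of the departure from the mid-parent was found in the same transcripts. The class above both at tillering had a median log2 ratio of 0.03 at heading over 627 transcripts, and 34 of them (5.42%) were above both there, against 3.05% of all 9228. The class below both had a median of -0.11 over 865 transcripts, and 54 (6.24%) were below both, against 2.18%. A call near a parent was found more often at both stages, for the same parent and for the other one. Of the transcripts near R9308 at tillering, 63 of 206 were so at heading (30.6%, against 8.5% of all), and near Xieqingzao B, 79 of 313 (25.2%, against 5.09%). Of the same 206, 34 were near Xieqingzao B at heading (16.5%, against 5.09%), and of the 313, 49 were near R9308 (15.7%, against 8.5%). Every such call requires parents 2-fold apart, so these shares also reflect parental differences found at both stages. In 75.2% of the 206 and 72.8% of the 313, the parents differed in the same direction at both stages, against 53.6% of all.

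**Figure D3:**
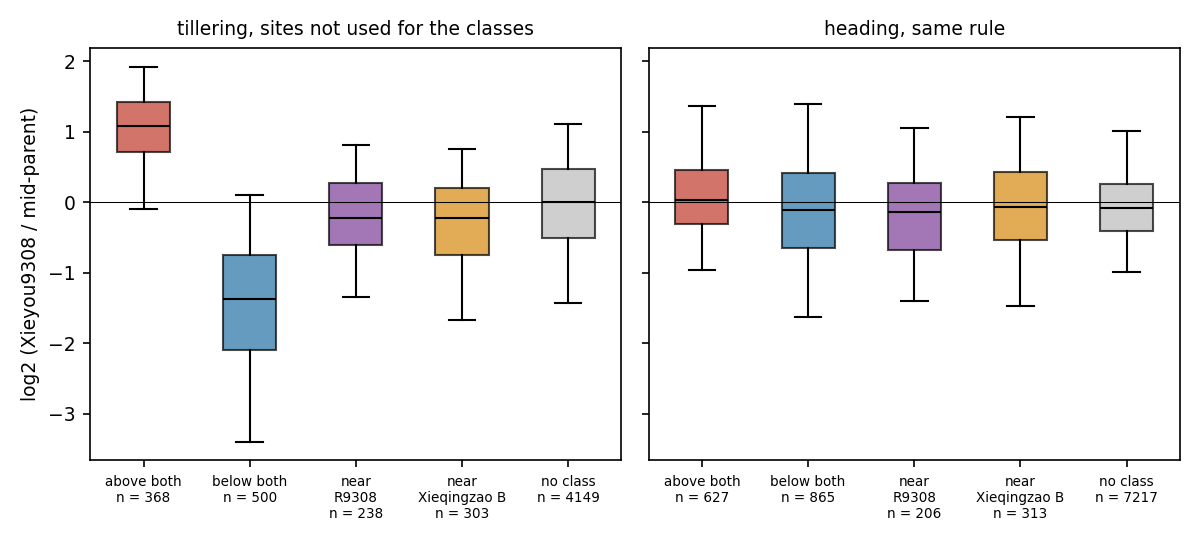
Log2 of hybrid over mid-parent by class at tillering, at sites not used for the classes (left) and at heading under the same rule (right). Boxes run from the lower to the upper quartile with the median as a line, and whiskers reach the 5th and 95th percentiles over transcripts. The median of the class above both is 1.09 on the left and 0.03 on the right, and that of the class below both -1.37 and -0.11.

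Parental alleles in the hybrid were counted at the best covered SNP between the parents, where it had at least 44 hybrid reads. A preference of the mapping for reference bases can move these shares and was not tested. In 99 transcripts above both parents the R9308 allele made up a median of 51.8% of the reads, and in 87 below both, 50%. Both alleles were close to equal at the median, with quartiles of 45.3% and 57.1% above and 42.8% and 57.6% below. Between the parents the alleles followed the parental difference. The median share of the R9308 allele was 58.1% in 23 transcripts near R9308 with R9308 higher and 57.2% in 17 near Xieqingzao B with R9308 higher. It was 37.7% in 13 transcripts near R9308 with Xieqingzao B higher and 36.9% in 27 near Xieqingzao B with Xieqingzao B higher.

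By the chromosome number in the identifiers, transcripts near a parent were concentrated on chromosome 11. There 54 were near R9308 and 66 near Xieqingzao B, together 120 of 610 (19.7%), while the other chromosomes had between 4.69% (chromosome 2) and 9.57% (chromosome 7). The parents were 2-fold apart in 29.3% of the transcripts of chromosome 11, and in 9.97% to 18.1% elsewhere. Within chromosome 11, the share was 30.3% of the 152 transcripts with locus numbers from 600000 to 699999, and 12% to 18.8% in the other 6 blocks of that size. The outer classes were spread more evenly. The share above both ran from 5.8% (chromosome 10) to 10% (chromosome 3) and the share below both from 6.58% (chromosome 8) to 11.8% (chromosome 9).

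**Figure D4:**
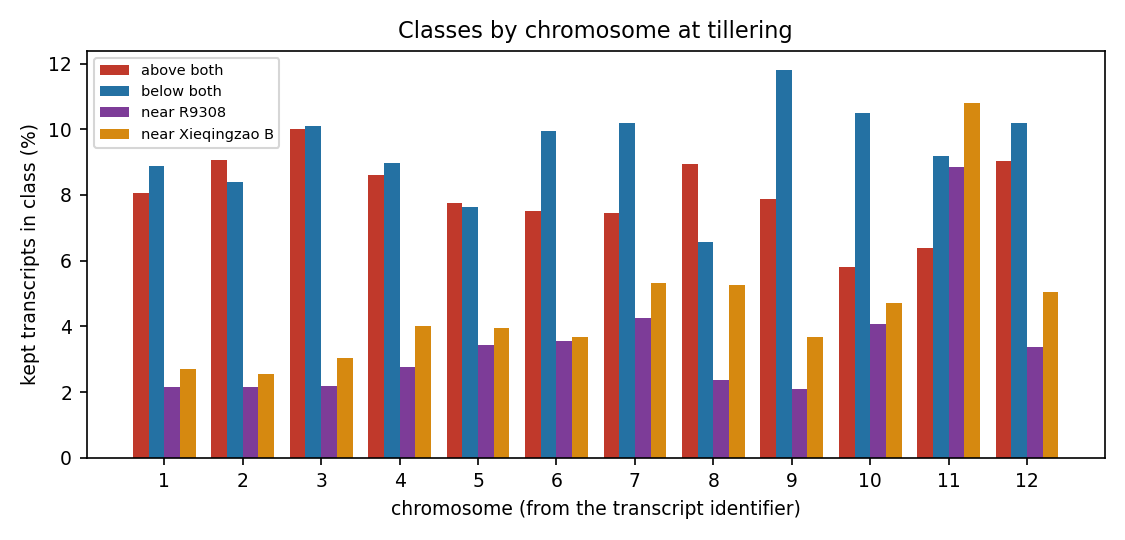
Share of kept transcripts in each class at tillering by chromosome, in percent. On chromosome 11 the share is 8.85% near R9308 and 10.8% near Xieqingzao B, above every other chromosome, while the shares above both and below both there are 6.39% and 9.18%.

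Neighbouring loci shared a class more often than the class was found overall. The next kept locus was also below both parents after 164 of 927 loci of that class (17.7%, against 9.59% of loci). It was in the same class after 8.26% of loci near R9308 and 10.2% of those near Xieqingzao B, against 3.39% and 4.34%. For the class above both the shares were 10% and 8.24%. The following runs of loci were picked after their values had been seen, and whether their members share sequence, and so reads, was not tested.

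On chromosome 7, 6 consecutive kept loci from Os07t0429600-00 to Os07t0432333-01 were near Xieqingzao B. Os07t0429700-01 had 4887 reads in the hybrid, 140 in R9308 and 10669 in Xieqingzao B, and Os07t0431160-00 had 5621, 159 and 10623. In all 6 the R9308 level was very low, with log2 ratios of R9308 to Xieqingzao B from -6.69 to -5.76. The hybrid was close to the mid-parent, with log2 ratios from -0.63 to 0.20, and all 6 were near Xieqingzao B at heading as well. On chromosome 11, 6 loci from Os11t0689800-01 to Os11t0691600-01 were near R9308. Os11t0691100-00 had 4342 reads in the hybrid, 16080 in R9308 and 146 in Xieqingzao B, and Os11t0691500-00 had 2163, 13313 and 130. At heading 3 of the 6 were measured and 2 of these were near R9308.

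There were 7 runs of at least 4 loci below both parents. Of their 33 loci, 26 were measured at heading and 2 of these were below both there. The share below both at heading was 6.24% in the whole class below both at tillering and 2.18% of all transcripts measured at both stages. On chromosome 2, Os02t0570400-01 had 417 reads in the hybrid, 11601 in R9308 and 1393 in Xieqingzao B over 20 sites. Os02t0570700-01 had 55, 3544 and 397 reads and Os02t0571100-01 had 72, 4741 and 516. The 5 loci of this run, from Os02t0569900-01 to Os02t0571300-01, were all highest in R9308 and lowest in the hybrid at tillering. At heading Os02t0570400-01 had 2784, 5129 and 2081 reads and Os02t0571100-01 had 1367, 1429 and 500, and none of the 5 was below both. On chromosome 11, Os11t0474800-01 had 2368 reads in the hybrid, 16126 in R9308 and 7797 in Xieqingzao B over 76 sites. It belongs to a run of 4 loci with 148 sites, log2 ratios to the mid-parent from -2.49 to -1.66 and, at heading, from 0.04 to 0.59. On chromosome 12, Os12t0555200-01 had 549, 5043 and 1922 reads, in a run of 4 loci with ratios from -3.77 to -2.31. At heading, 3 of these 4 were still lower than the mid-parent, with ratios from -0.96 to -0.82, and Os12t0555100-01 had 0.39. These 3 runs kept their class with the adjustment for position. The 2 loci below both at heading as well were Os06t0642200-00 and Os06t0642300-00, in a run of 6 on chromosome 6, with ratios of -1.53 and -1.84 there.

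A single run of 4 loci was above both parents, on chromosome 1. Os01t0840700-00 had 613 reads in the hybrid, 203 in R9308 and 226 in Xieqingzao B, and Os01t0841050-01 had 229, 56 and 109. The log2 ratios of the 4 loci lay between 1.19 and 1.79, and with the adjustment for position 2 of the 4 stayed in the class. At heading 3 were measured, with ratios from 0.02 to 0.61.

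The identifiers also carry a suffix for the transcript model. Those ending in -00 were below both parents in 234 of 1635 (14.3%) and near a parent in 12.5%, against 8.9% and 6.75% of the 7595 ending in -01. With the adjustment for position the shares below both were 11.3% and 7.48%. What sets the -00 models apart is not given in the sources used here.

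Descriptions were available only for 38 loci that the study had selected for strong allelic bias in these same roots, so their parental differences are not independent evidence. By the rule, 16 transcripts of 15 of these loci were kept. None was 2-fold above both parents or 2-fold below both, 5 were near R9308 and 5 near Xieqingzao B, and 6 had no call. Over all kept transcripts the shares were 8.24% above both, 9.15% below both, 3.13% near R9308 and 4.1% near Xieqingzao B. With only 16 transcripts, the lack of calls outside the parents is not read as a trait of the list. The plain order placed the hybrid highest in 2 of the 16 and lowest in 4. The median log2 ratio of hybrid to mid-parent was -0.14, against 0.03 over all kept transcripts, and with the adjustment for position it was 0.17, against 0.10.

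**Figure D5:**
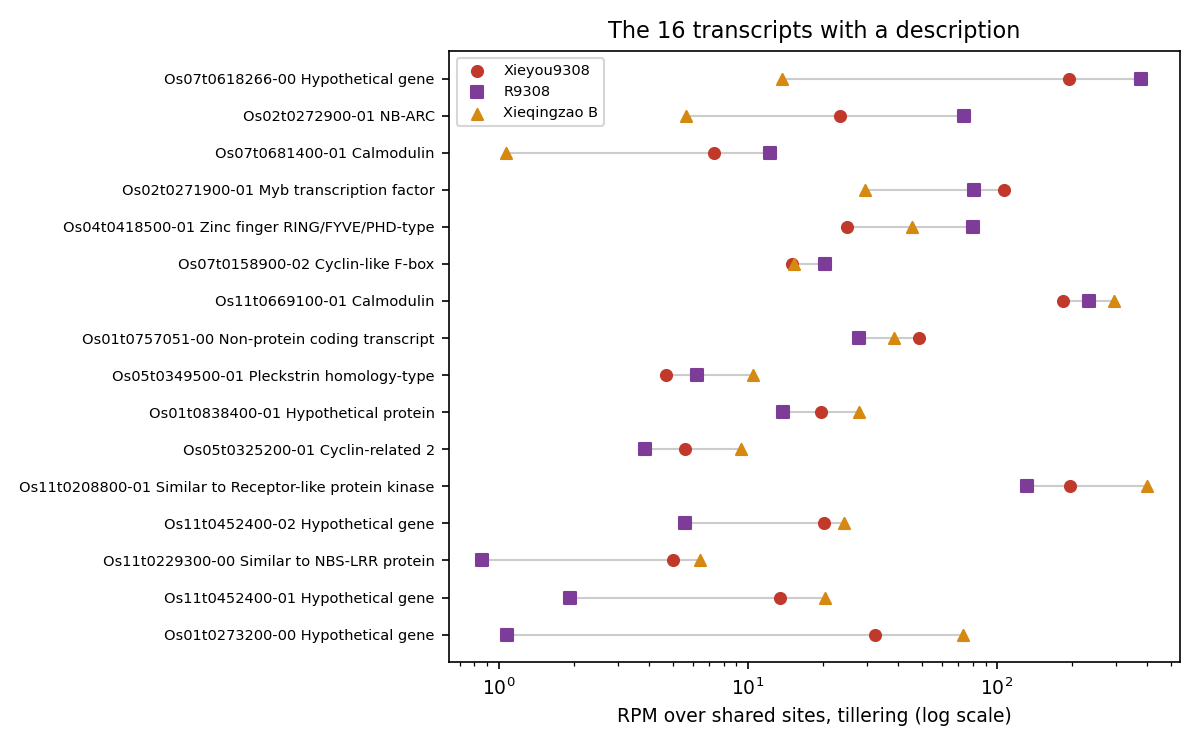
Normalised depth at tillering, in RPM over the shared sites on a log axis, of the 16 kept transcripts with a description, ordered by the ratio of R9308 to Xieqingzao B. The hybrid lies between the parents in 10 of them, above both in 2 and below both in 4.

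Resistance genes of the NBS-LRR type encode proteins that recognise pathogen effectors inside the cell, and NB-ARC is their nucleotide-binding domain. The NB-ARC domain protein Os02t0272900-01 had 80 reads in the hybrid, 341 in R9308 and 21 in Xieqingzao B, or 23.5, 73.4 and 5.63 RPM. The hybrid lay between the parents, nearer to R9308, and at the best site the 3 Poisson intervals did not overlap (7.16 to 14.3, 27.9 to 38.6 and 2.05 to 6.30 RPM). At heading the order was the same, with 46, 83 and 36 reads, and the hybrid was nearer to Xieqingzao B. The NBS-LRR-like Os11t0229300-00 had only 17, 4 and 24 reads at its single shared site and was near Xieqingzao B. At 22 other sites it had 872, 769 and 1395 reads and was again near Xieqingzao B, with a log2 ratio to the mid-parent of -0.11.

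Among the transcripts for signalling proteins, the receptor-like protein kinase Os11t0208800-01 had 666 reads in the hybrid, 610 in R9308 and 1484 in Xieqingzao B over 8 sites. Receptor-like kinases carry signals from outside the cell across the plasma membrane. The hybrid was near the low parent R9308 at tillering and, with 454, 141 and 741 reads, near Xieqingzao B at heading. The sites at tillering were divided. At the best covered site, with 166, 112 and 294 reads, the hybrid was nearer to Xieqingzao B, and at 2 of the 8 it was below both parents. With the adjustment for position and at 1 other site it was near R9308. Calmodulins bind calcium and pass its signal to target proteins. Os11t0669100-01 had 626, 1089 and 1096 reads, lowest in the hybrid by under 2-fold, and at heading 867, 565 and 535, highest in the hybrid. At 3 other sites at tillering it had 103, 202 and 97.1 RPM, and the hybrid lay between the parents, near Xieqingzao B. Os07t0681400-01 had 25, 57 and 4 reads at its shared site and was near R9308, but at another site it had 41, 95 and 142 reads, with the parents in the opposite order.

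The Myb domain transcription factor Os02t0271900-01 had 364 reads in the hybrid, 376 in R9308 and 110 in Xieqingzao B, or 107, 80.9 and 29.5 RPM. The hybrid was highest, 0.95 above the mid-parent on the log2 scale, but at the best site its interval of 34.9 to 48.9 RPM overlapped that of R9308 (27.7 to 38.4). At 14 other sites the ratio was 0.63 and the order the same, and at heading it was -0.20. The zinc finger RING/FYVE/PHD-type protein Os04t0418500-01 had 85, 373 and 170 reads, lowest in the hybrid, with a ratio of -1.33. At its best site the hybrid interval of 6.19 to 12.9 RPM overlapped that of Xieqingzao B (9.03 to 16.5). At heading it had 117, 48 and 132 reads and a ratio of 0.58. At 5 other sites at tillering the ratio was -0.33 and the hybrid lay between the parents, near Xieqingzao B, with 51.9, 94.7 and 36.1 RPM.

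For the transcripts of domain proteins with few reads the place of the hybrid was not resolved at the shared site. The pleckstrin homology-type Os05t0349500-01 had 16, 29 and 39 reads, the cyclin-related Os05t0325200-01 had 19, 18 and 35, and the cyclin-like F-box Os07t0158900-02 had 51, 95 and 57. In each of these, the interval of the hybrid overlapped that of the nearer parent. For Os05t0325200-01, called near R9308, the intervals of the parents did not overlap. Its 5 other sites gave the same class with 107, 91 and 208 reads, but at heading it was near Xieqingzao B. At 1 other site Os05t0349500-01 had 173, 278 and 90 reads, with the parents in the opposite order. At heading Os07t0158900-02 had 84, 182 and 462 reads and was 2-fold below both parents. The non-coding Os01t0757051-00 had 165, 130 and 144 reads and was highest in the hybrid, with a ratio of 0.54. Its hybrid interval of 41.4 to 56.5 RPM also overlapped that of Xieqingzao B (32.6 to 45.5).

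Transcripts of hypothetical genes included the widest parental differences in the list. Os07t0618266-00 had 660 reads in the hybrid, 1756 in R9308 and 51 in Xieqingzao B over 7 sites, at almost exactly the mid-parent (-0.01). Os01t0273200-00 had 110, 5 and 273 reads, and Os11t0452400-01 and Os11t0452400-02 had 46, 9 and 76 and 69, 26 and 91. The last pair are models of 1 locus and can share reads. The hybrid was nearer to the high parent in these 4 transcripts on the log2 scale, with ratios to the mid-parent between -0.20 and 0.43. Os01t0838400-01 had 67, 64 and 104 reads and was near Xieqingzao B, with a ratio of -0.08, but near R9308 at its 17 other sites.

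The other 23 described loci were not kept, 22 because they had no shared site and 1 for too few reads, and were measured only at other sites. There, among 26 transcripts, 1 was 2-fold above both parents, 2 were 2-fold below both, 8 near R9308 and 1 near Xieqingzao B, while over all 14427 transcripts at such sites 6.95% were above both, 9.19% below both, 5.09% near R9308 and 7.86% near Xieqingzao B. The transcripts below both parents were Os07t0129200-01 and Os07t0617100-01. Os07t0129200-01, similar to the pathogenesis-related protein PR1a, had 99 reads in the hybrid, 1402 in R9308 and 504 in Xieqingzao B at a single site, with a log2 ratio to the mid-parent of -2.88. Os07t0617100-01, of the plant disease resistance response family, had 44, 193 and 332 reads, also at a single site, with -2.37. The related Os07t0127700-01, a class 1 pathogenesis-related protein, had 94, 182 and 36 reads and was near R9308. The chitin elicitor receptor kinase Os09t0511000-01, a receptor for fungal cell wall fragments, had 367, 511 and 290 reads and a ratio of 0.21, and the model Os09t0511000-02 had 53, 101 and 34 reads and a ratio of 0.04. The transcript above both was Os04t0349500-01, similar to ribosomal protein S8 of the 40S subunit, with 183, 104 and 47 reads and a ratio of 1.64.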

How the data were processed

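Root mRNA of Xieyou9308, R9308 and Xieqingzao B was sequenced by the authors as paired-end reads, filtered and mapped with RSEM (1.1.11) to the Nipponbare reference (IRGSP build 5.0), with the reads of the 2 roots per genotype and stage pooled. The submitters' processing notes name CASAVA 1.8 and SAMtools 0.1.16. The deposited table holds called bases, supporting reads and a quality score per site as the authors made them. Sites with the same single base in the 3 tillering columns were used. Depth was divided by the column sum, summed per transcript and compared without a pseudocount. The members and lists were chosen with earlier results of these data known. Named transcripts were the 2 per class with the largest difference from the nearer parent, or between the parents, as no functions could be matched: 0 of 9674 kept loci were in the RefSeq gene table of 39387 genes, and only 0.148% of kept transcripts had a description, so planned lists by function and cell type were void. Transcripts with a description were named in addition, and their descriptions come from the study's own list of 38 loci.

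The rule for the classes was run on simulated reads that carried counting error only. These reads had no gradient with position and no spread between libraries, so the run cannot speak to those limits. The 18 other settings tried changed scaling, read minimum, fold, sites, quality score, pseudocount and transcript models, and 3 more concerned position. For allele shares, only sites with at least 44 hybrid reads were used. No coordinates or sequences are given. Scripts ran under Python 3.11.15 with scipy 1.17.1, pandas 2.3.3 and numpy 2.4.6, and plots were drawn with matplotlib 3.10.9.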

Additional observations from a re-analysis of the deposited data

Results flagged for a closer look

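Some transcripts lay on opposite sides of their parents at the 2 stages. Of the 865 transcripts below both parents at tillering and measured at heading, 47 (5.43%) were 2-fold above both at heading, where 3.05% of all 9228 transcripts measured at both stages were above both. A further 54 were below both at both stages. In the other direction, 10 of 627 transcripts above both at tillering (1.59%) were below both at heading, no more than the 2.18% of all. The difference between the stages was not tested, since each genotype and stage had 1 pooled column. A pair of neighbours on chromosome 12, picked after their values were seen, shows the change at its clearest. Os12t0637200-01 at tillering had 22 reads in the hybrid, 80 in R9308 and 121 in Xieqingzao B. At heading it had 3367, 76 and 639. Os12t0637400-01 had 4, 30 and 55 reads at tillering and 405, 7 and 56 at heading.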

How the results depend on the processing

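No paired analysis was possible because the replicate roots were pooled and the columns carry no replicate number. For the same reason no replicate could be left out. Each class was recounted under 21 alternatives, of which 3 on position were chosen after seeing the data. The count above both stayed within 1.5 times the reported one in 14, below both in 14, near R9308 in 11 and near Xieqingzao B in 12. Each of these tallies includes the geometric mean of the parents, which could not change a count because the classes do not use the mid-parent. Counts beyond that, in the order above both, below both, near R9308 and near Xieqingzao B, were 2075, 1914, 538 and 694 at 1.5-fold and 173, 405, 196 and 270 at 3-fold. They were 497, 620, 139 and 213 of 6692 transcripts at a minimum of 100 reads, 13, 29, 40 and 29 of 248 where the shared base was the reference base, 1449, 1698, 817 and 1183 of 19819 with all called sites, and 548, 388, 175 and 229 of 5926 with positions over 1000 only. Single classes moved in others. With 20 reads required in all 3 columns there were 572 below both, 139 near R9308 and 223 near Xieqingzao B, which removes transcripts low in 1 column. Near R9308 there were 212 at a minimum of 50 reads and 213 with the median over sites, which also gave 511 above both. Sites not used by the rule gave 735 near R9308 and 1134 near Xieqingzao B of 14427, and models ending in -01 gave 277 near Xieqingzao B of 7595. These settings also change how many transcripts are measured. As a share of those kept, above both ran from 1.6% to 19.2% and below both from 3.76% to 17.8%. The median log2 ratio to the mid-parent lay between -0.06 and 0.13, and was 0.13 at positions over 1000. Median-of-ratios scaling put 40.9% of the outside transcripts above, against 47.4% as reported. Of the 18 named transcripts with a class, 17 kept it under that scaling, 18 with the position adjustment and 15 at the best site alone. Depth limits transcripts with few reads, and pooled roots limit every comparison, since differences between single plants or libraries cannot be separated from those between genotypes.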
